A study of Mus musculus with 36 samples.

Results

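The leptomeninges, the pia and arachnoid that wrap the brain, are made largely of fibroblasts. 36 genes of these cells and of the matrix they lay down were followed, out of 18194 genes with a probe set annotated to a single gene. Each gene was read from its single-gene probe set with the highest mean in the tissue, a probe set being a group of short probes for one transcript. All 36 were among the 15000 genes tested in each of 3 brain regions.

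Leptomeningeal fibroblasts secrete fibrillar collagens, small proteoglycans and glycoproteins that hold the pial layer together. They also carry transporters that move solutes between brain, blood and cerebrospinal fluid, and they make retinoic acid. The same matrix genes are used by fibroblasts around large vessels and in the stroma of the choroid plexus. In pieces of whole tissue, more or fewer such cells and more or less RNA per cell cannot be told apart.

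RNA of the cortex, hypothalamus and hippocampus was measured on 36 Affymetrix arrays in 12 groups of 3 mice. cKO mice carried Camk2a-CreERT2 and 2 floxed Dicer alleles (Cre+;Dicer lox/lox) and received 10 mg of tamoxifen in all over 5 days at 8 weeks of age. Control mice had the same genotype and received the sunflower seed oil and ethanol vehicle. Both were on a C57BL/6J background, and tissue was taken 4 or 8 weeks after injection. Dicer cuts precursors into mature miRNAs, and the Camk2a promoter limits the tamoxifen-activated recombinase to Camk2a-expressing neurons, which fibroblasts are not. No group received tamoxifen without a floxed allele, so tamoxifen itself and the loss of Dicer cannot be told apart here. Cortex and hippocampus were cut from sagittal slices and the hypothalamus was taken from the ventral side, and the amount of meninges left on each piece was not recorded in the sources used here. Values are log2 intensities that were normalized within each tissue, and levels were compared only within a tissue and a probe set.

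Some cortex arrays stood apart. In the cortex, the median level of all genes lay at 0.11, 0.10 and 0.03 in the cKO arrays of 4 weeks and at -0.07, -0.06 and 0.05 in the control arrays, relative to the mean of the 12 cortex arrays on the log2 scale. Replicate 3 of both 4-week groups and replicate 2 of cKO at 8 weeks had stood apart in earlier results of these data. The difference between 3′ and 5′ actin probe sets, a measure of RNA integrity, was 1.12, 1.12 and 1.14 in the cKO cortices of 4 weeks, against 1.30, 1.33 and 1.07 in the control cortices. The probe set for Dicer1 was not called in any tissue (cortex at 4 weeks 0.10, adjusted p = 0.447), and its position relative to the deleted exon was not determined here, so it does not check the labels.

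The genes followed 3 different patterns in the 3 regions. At 4 weeks most of them had higher levels in cKO than in control cortices. In the hypothalamus, they were high together in 3 of the 12 arrays, which belonged to 3 different groups. In the hippocampus, nearly all had lower levels in cKO mice of 4 weeks than in their controls, with groups that mostly overlapped, and none passed the test.

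**Figure D1:**
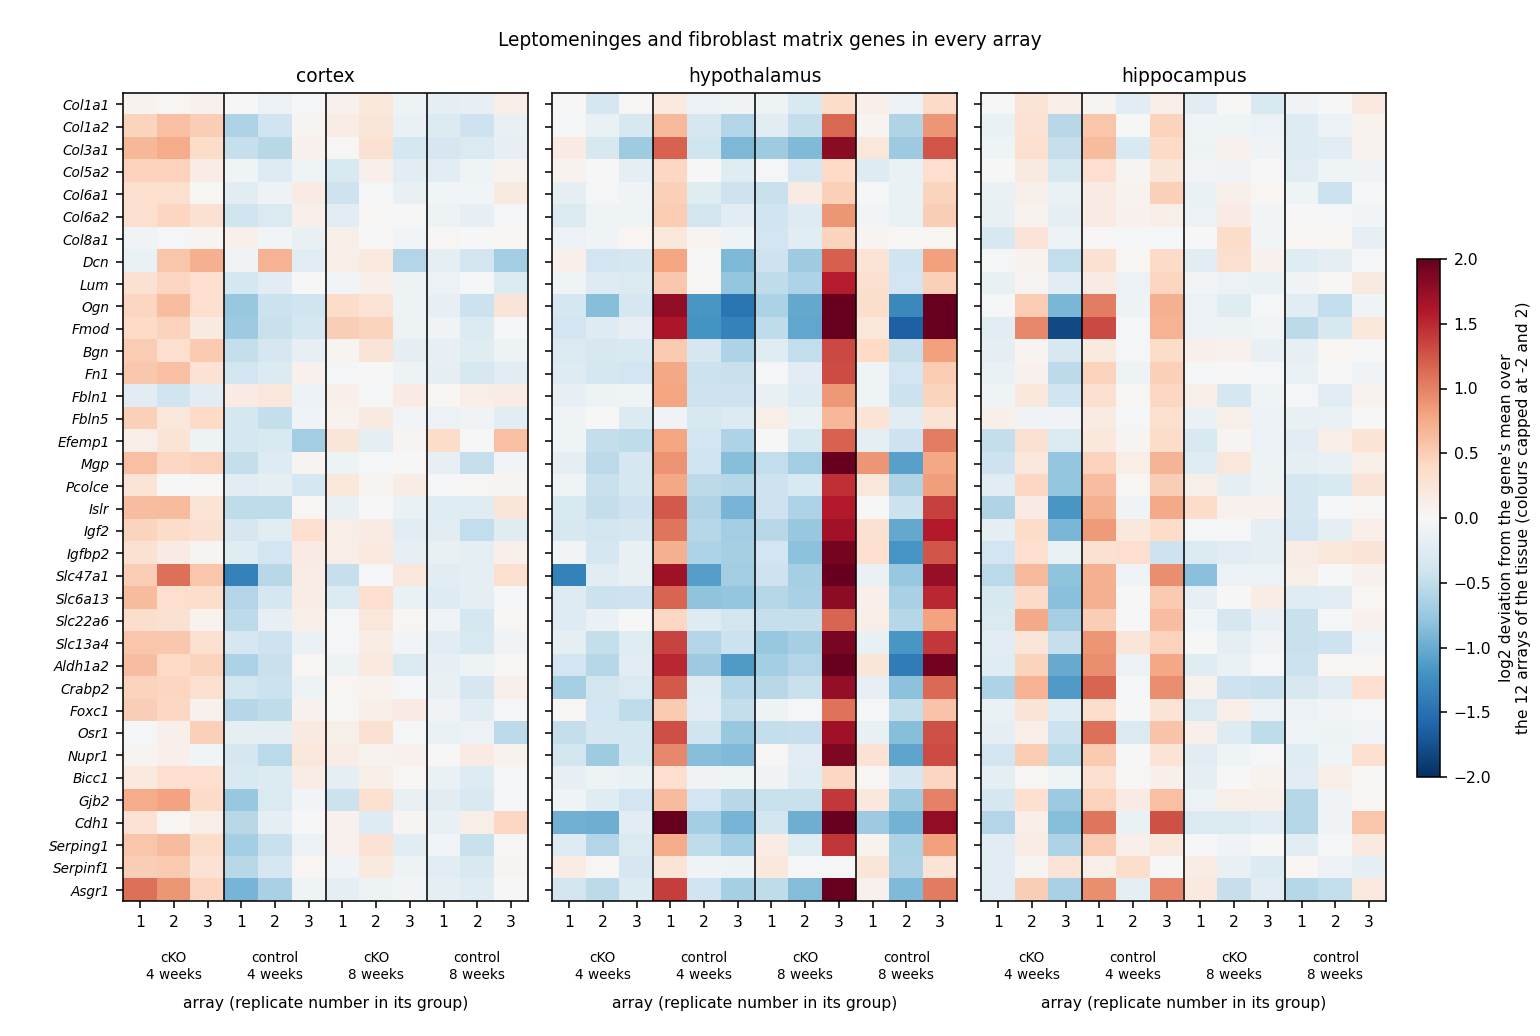
Colour shows the log2 deviation of each of the 36 genes (rows) from its own mean over the 12 arrays of a tissue, with 1 column per array, the 3 replicates of each group side by side and colours capped at -2 and 2. The cKO cortices of 4 weeks are mostly red, the hypothalamus has 3 dark red columns in 3 groups, and the cKO hippocampus of 4 weeks has 1 red and 2 bluer columns.

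In the cortex at 4 weeks, 25 of the 36 genes rose and 1 fell in cKO mice (limma, Benjamini-Hochberg over the 15000 genes of the tissue, FDR of 15%). Of all genes tested, 8.39% were called, 7.42% as higher and 0.967% as lower. The 36 genes were chosen with earlier results of these data known. Their counts against all genes, here and below, are therefore descriptions and no independent test. The median log2 difference of the 36 genes was 0.66, against 0.12 over all genes tested, and 35 of the 36 were higher in cKO, against 74.5% of all genes. The cKO and control arrays did not overlap for 27 genes that were higher and 1 that was lower in cKO, against 17.7% and 2.3% of all genes. For 20 of the 36 genes the 3 highest of the 12 cortex values were those of the 3 cKO arrays of 4 weeks, which held for 7.23% of all genes.

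The fibrillar collagens form the strong fibres of the pia, and 3 of the 4 rose (median 0.67). Col1a2, a chain of type I collagen, stood at 8.50, 8.65 and 8.54 in cKO cortices, against 7.42, 7.65 and 8.10 in control cortices. Every cKO array lay above every control array, and control replicate 3 was the nearest; the log2 difference was 0.83 ± 0.15 (SE, limma adjusted p = 0.0494). Col3a1, the type III chain of thin fibres, had 6.35, 6.43 and 6.06 in cKO and 5.24, 5.13 and 5.77 in control cortices (0.90, adjusted p = 0.0605). Col5a2, a type V chain that takes part in starting fibrils, had 6.05, 6.05 and 5.73 in cKO and 5.50, 5.32 and 5.50 in control cortices (0.50, adjusted p = 0.094). Both kept the groups apart. Col1a1, the partner chain of Col1a2, differed by only 0.12 (adjusted p = 0.491), with 4.89, 4.86 and 4.90 in cKO and 4.81, 4.70 and 4.78 in control cortices. These values lie low on the array, and the difference was -0.01 once each array was centred on its median.

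Of the other collagens, Col6a2, a chain of the beaded type VI filaments, rose by 0.54 (adjusted p = 0.0775), with 7.93, 8.04 and 7.92 in cKO and 7.21, 7.33 and 7.71 in control cortices. Col6a1, another chain of the same trimer, had 7.86, 7.85 and 7.55 in cKO and 7.29, 7.42 and 7.69 in control cortices. Its groups overlapped and it did not pass (0.29, adjusted p = 0.245). Col8a1, a short-chain collagen, differed by 0.03, and by -0.11 after centring.

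The small leucine-rich proteoglycans bind collagen fibrils and set their width, and 4 of the 5 rose (median 0.78). Ogn, also called osteoglycin, had 6.69, 6.87 and 6.59 in cKO and 5.49, 5.83 and 5.86 in control cortices, a difference of 0.99 ± 0.17 (SE, adjusted p = 0.048). Bgn, or biglycan, had 7.57, 7.38 and 7.57 in cKO and 6.57, 6.71 and 6.89 in control cortices (0.78 ± 0.12, adjusted p = 0.0404). Fmod, fibromodulin, had 8.76, 8.82 and 8.54 in cKO and 7.63, 7.91 and 8.01 in control cortices (0.85, adjusted p = 0.0494). For these 3 genes the gap between the groups was wider than the range within either. Lum, lumican, rose by 0.55 (adjusted p = 0.0559). Dcn, decorin, did not follow: it had 8.01, 8.69 and 8.85 in cKO and 8.07, 8.84 and 7.92 in control cortices. One control array reached the level of the highest cKO array, and the difference of 0.24 did not pass (adjusted p = 0.606).

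Among the 7 glycoproteins and assembly proteins, 6 rose and 1 fell. Fn1, fibronectin, to which cells attach through integrins, had 8.78, 8.83 and 8.53 in cKO and 7.85, 7.96 and 8.33 in control cortices (0.66, adjusted p = 0.0494). Mgp, matrix Gla protein, an inhibitor of calcification, had 9.87, 9.69 and 9.73 in cKO and 8.79, 9.01 and 9.32 in control cortices (0.72, adjusted p = 0.0494). Fbln5, which helps to assemble elastic fibres, had 6.96, 6.71 and 6.89 in cKO and 6.14, 6.02 and 6.42 in control cortices (0.66, adjusted p = 0.0464). In all 3 of these genes the highest control array was replicate 3, still below every cKO array. Islr, a secreted leucine-rich protein of mesenchymal cells, rose by 0.84 (adjusted p = 0.0587). Efemp1, a fibulin, rose by 0.55 (adjusted p = 0.128), and Pcolce, which enhances the trimming of procollagen, by 0.35 (adjusted p = 0.101).

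Fbln1, another fibulin, was the one gene that fell, with 5.61, 5.43 and 5.61 in cKO and 5.99, 6.06 and 5.71 in control cortices (-0.37 ± 0.11, SE, adjusted p = 0.113). Its other probe sets went the opposite way, each with a difference of 0.52, so the direction for Fbln1 depends on the probe set. With each array centred on its median the difference was -0.50 and narrowly missed the 15% threshold (adjusted p = 0.152). Over the 20 genes with several probe sets, all sets of a gene had the same direction in 17.

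The carriers move organic ions and sulfate across the meningeal barrier, and 3 of the 4 rose. Slc13a4, a sulfate transporter, had the lowest p of the 36 genes. It had 8.22, 8.20 and 7.99 in cKO and 7.33, 7.26 and 7.53 in control cortices, a difference of 0.77 ± 0.11 (SE, adjusted p = 0.0216). The gap between the groups was wider than the spread within either of them. Slc47a1, an exporter of organic cations, had the widest spread: 6.28, 6.89 and 6.34 in cKO and 4.44, 5.23 and 5.95 in control cortices (1.30 ± 0.31, adjusted p = 0.0843). Slc6a13, a GABA and taurine transporter, rose by 0.70 (adjusted p = 0.0972). Slc22a6, an organic anion transporter, had 6.45, 6.39 and 6.17 in cKO and 5.57, 5.92 and 6.22 in control cortices, overlapped and did not pass (0.43, adjusted p = 0.16).

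The start regions of Slc13a4 and Col1a2 are shown because they had the lowest p in the cortex and the closest tracking of the other genes in the hippocampus. The 300 bases are from RefSeq on build GRCm38.p6, at chr6:35308077-35308376 on the minus strand for Slc13a4 and chr6:4505368-4505667 on the plus strand for Col1a2. Capitals mark CCAAT and GGGCGG or their reverse complements ATTGG and CCGCCC.
Slc13a4: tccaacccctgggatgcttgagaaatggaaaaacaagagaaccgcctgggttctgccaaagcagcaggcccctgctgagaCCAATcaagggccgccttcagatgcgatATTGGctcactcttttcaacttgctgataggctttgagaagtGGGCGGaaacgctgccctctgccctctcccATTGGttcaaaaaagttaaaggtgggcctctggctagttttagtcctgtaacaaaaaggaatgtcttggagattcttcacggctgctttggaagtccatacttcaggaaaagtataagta
Col1a2: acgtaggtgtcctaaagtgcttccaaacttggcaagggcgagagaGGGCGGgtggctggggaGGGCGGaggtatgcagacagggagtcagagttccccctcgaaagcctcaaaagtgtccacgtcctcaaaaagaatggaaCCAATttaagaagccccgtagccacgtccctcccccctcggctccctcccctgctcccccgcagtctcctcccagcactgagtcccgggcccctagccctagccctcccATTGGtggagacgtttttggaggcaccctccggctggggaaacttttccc
Both windows hold CCAAT on both strands and GGGCGG on the strand shown. Windows were found for 24 of the 36 genes, 34 in all. On either strand, CCAAT was in 12 of these 34 windows and GGGCGG in 17, against 37.4% and 35.7% of 32851 windows of the same length. TATAAA was in 2 (Col3a1 and Ogn), against 13.6%, AGGTCA in 7, against 16.3%, and GTAAACA in 1 (Col6a1), against 3.65%. These are matches of letters and were not tested as sites.

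The retinoic acid genes both rose. Aldh1a2, which makes retinoic acid from retinaldehyde, had 6.02, 5.80 and 5.85 in cKO and 4.77, 4.96 and 5.44 in control cortices (0.84, adjusted p = 0.0504). Crabp2, which carries it to its nuclear receptor, had 6.04, 6.01 and 5.90 in cKO and 5.22, 5.15 and 5.48 in control cortices (0.70, adjusted p = 0.0462). Neither gene's groups overlapped.

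Asgr1, known as a subunit of the liver's asialoglycoprotein receptor, showed the largest difference of the 36 genes, 1.36 ± 0.20 (SE, adjusted p = 0.0238). It had 5.99, 5.76 and 5.32 in cKO and 3.95, 4.24 and 4.79 in control cortices. Gjb2, the gap junction protein connexin 26, had 7.56, 7.63 and 7.21 in cKO and 6.06, 6.53 and 6.77 in control cortices (1.01 ± 0.20, adjusted p = 0.0586). Both genes separated the groups. Cdh1, E-cadherin, of the arachnoid barrier layer, did so too but did not pass, with 4.60, 4.35 and 4.43 in cKO and 3.74, 4.12 and 4.30 in control cortices (0.40, adjusted p = 0.196).

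The serpins both rose. Serping1, the C1 inhibitor of complement, had 7.13, 7.21 and 6.95 in cKO and 5.91, 6.14 and 6.47 in control cortices (0.93, adjusted p = 0.0494). Serpinf1, or PEDF, an inhibitor of vessel growth, had 7.19, 7.22 and 6.99 in cKO and 6.15, 6.36 and 6.74 in control cortices (0.72, adjusted p = 0.067). In both the control array of replicate 3 came closest to the cKO arrays.

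Of the regulators, Foxc1, a forkhead factor needed for the meninges to form, rose by 0.66 (adjusted p = 0.0826), with 6.35, 6.26 and 5.95 in cKO and 5.28, 5.35 and 5.94 in control cortices. Bicc1, an RNA-binding protein, rose by 0.43 (adjusted p = 0.12). Osr1, a zinc finger factor of mesenchyme, and Nupr1, a stress-induced chromatin protein, had overlapping groups and did not pass (both 0.25, adjusted p = 0.358 and 0.334). Neither of the insulin-like growth factor genes passed. Igf2, a growth factor that the meninges secrete, had 9.04, 8.96 and 8.90 in cKO and 8.25, 8.36 and 8.93 in control cortices (0.45, adjusted p = 0.157). Igfbp2, which binds it, had 8.80, 8.66 and 8.55 in cKO and 8.26, 8.12 and 8.67 in control cortices (0.32, adjusted p = 0.23). In both of these genes control replicate 3 alone reached the cKO range.

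**Figure D2:**
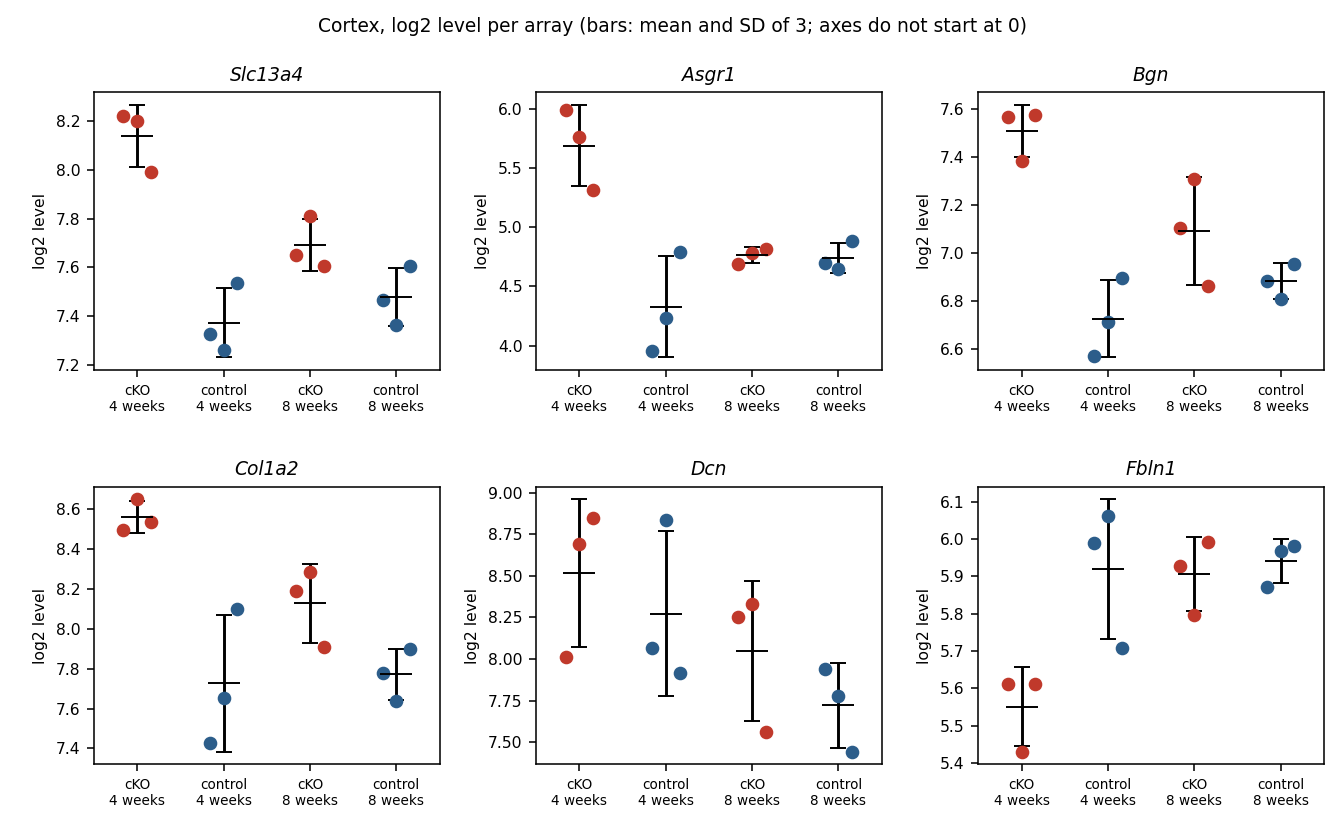
Log2 level in each cortex array (points) with the mean and SD of 3 (bars) for 6 genes, cKO in red and control in blue; axes do not start at 0. Slc13a4, Asgr1, Bgn and Col1a2 have all 3 cKO arrays of 4 weeks above all control arrays of 4 weeks, Dcn overlaps, and Fbln1 is lower in cKO.

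The count of called genes in the cortex rested on few arrays. Leaving out cKO replicate 2, control replicate 1, control replicate 2 or cKO replicate 1 of 4 weeks left 1, 2, 3 or 13 genes called, with 0.04%, 0.0667%, 0.12% or 0.84% of all genes. Leaving out cKO replicate 3 or control replicate 3 gave 29 or 33, and 32 were called without the 3 arrays that stand apart. The calls over all genes grew as well, to 19.9%, 42.5% and 54.7%. In the cKO and control groups of 4 weeks, replicate 3 had the lowest and the highest median deviation of the 36 genes (0.31 and 0.02). Leaving out either therefore widened the difference, and the 3 arrays were picked from earlier results of these data. Centring each array on its median put the median difference of all genes at -0.02 in place of 0.12. It left 17 of the 36 genes called, with a median of 0.52 over the 36. The share of all genes called after centring is not given here, so the 17 cannot be set against the background. The methods name limma as the test for the arrays, and a t-test for cKO against control groups in general. That t-test, referred to here as the methods' t-test, was also run on the 6 arrays. It called none after Benjamini-Hochberg adjustment, with 24 higher and 1 lower at an unadjusted p under 0.05, against 10.9% and 1.11% of all genes.

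Genes of related lists were set against the same background, in which 7.42% of all genes were called as higher and the median was 0.12. These lists were chosen with earlier results of these data known. Their counts against the background are therefore descriptions and no independent test of the rise. Of 29 further fibroblast matrix genes tested, 9 rose and none fell, with a median of 0.29. The lowest p were those of Prelp, a proteoglycan of basement membranes (0.62, adjusted p = 0.0494), Fstl1, a secreted glycoprotein (0.43, adjusted p = 0.0748), and Col6a3, another chain of collagen VI (0.66, adjusted p = 0.0784). Of 35 further meningeal genes tested, 13 rose and none fell, with a median of 0.29. They were led by Anxa1, a calcium-dependent membrane binder (1.02, adjusted p = 0.0187), Bmp6, a secreted BMP ligand (0.84, adjusted p = 0.0494), and Foxc2, the relative of Foxc1 (0.82, adjusted p = 0.0504). For each list and array, a score was taken as the median deviation of its genes from their means over the 12 arrays. The scores used every gene of a list with a probe set, also those too low to be tested: 31 fibroblast matrix, 37 meningeal, 17 choroid plexus, 13 endothelial and 12 mural and smooth muscle genes. The further meningeal score ran between 0.14 and 0.22 in cKO cortices of 4 weeks, and between -0.19 and -0.02 in control cortices.

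Markers of other cells were set beside these. None of 11 choroid plexus, 13 endothelial, 11 mural and smooth muscle, 12 ependymal or 10 microglial genes tested was called in the cortex at 4 weeks (limma), against 8.39% of all genes. At an unadjusted p under 0.05 by limma were 0, 1, 1, 3 and 1 of them, against 21.5% of all genes in either direction. The choroid plexus score lay between -0.16 and 0.42 in cKO cortices and between -0.17 and 0.42 in control cortices, and the endothelial score between 0.02 and 0.29 in cKO and between -0.10 and 0.16 in control cortices. Genes that mark a brain region were looked at too. Of the 5 hypothalamic identity genes tested, all were higher in cKO, and Pmch and Avp rose (0.59 and 0.46). Of the 5 hippocampal identity genes tested, 2 were higher and 3 lower, with a median of -0.04, and Lct alone was called (1.04, adjusted p = 0.0956). Of the 4 cortical identity genes tested, 1 was higher and 3 lower, with a median of -0.09, and Tbr1 alone was called (-0.88, adjusted p = 0.0587). Of 8 nuclear-retained transcripts Neat1 rose (0.47) and Malat1 fell (-2.27, adjusted p = 0.119), and of 2 erythrocyte genes Alas2 rose (0.68). The part of dissection, RNA quality and blood in the rise of the 36 genes was not tested.

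At 8 weeks none of the 36 genes was called in the cortex, and neither was any other gene (0% of 15000). By limma, 3 had an unadjusted p under 0.05, against 4.68% of all genes. The methods' t-test called none, with 2 at an unadjusted p under 0.05, against 5.68% of all genes. The median difference was 0.14, against 0.00 over all genes, 29 of 36 were higher in cKO, against 51.3% of all genes, and for 8 genes the cKO arrays lay above all control arrays, against 6.93% of all genes. Fmod had 8.85, 8.79 and 8.25 in cKO and 8.28, 8.09 and 8.32 in control cortices (0.40, unadjusted p = 0.0242). Col1a2 had 8.19, 8.29 and 7.91 in cKO and 7.78, 7.64 and 7.90 in control cortices (0.36, unadjusted p = 0.0383). Osr1 had 5.20, 5.38 and 5.06 in cKO and 4.94, 4.97 and 4.56 in control cortices (0.39, unadjusted p = 0.0297). Replicate 3 of the cKO group was the lowest of its group in all 3 genes, and only Fmod overlapped. Asgr1, the largest difference of 4 weeks, had 4.69, 4.78 and 4.82 in cKO and 4.70, 4.64 and 4.89 in control cortices.

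The change at 8 weeks minus that at 4 weeks had a median of -0.51 for the 36 genes, against -0.11 over all genes, but no member passed the test of the interaction (limma, 0.00667% of all genes called). At an unadjusted p under 0.05, 22 were lower and 1 higher, against 7.55% and 2.18% of all genes. Asgr1 had the lowest p, with a value of -1.34 (adjusted p = 0.472). With array weights 30 of the 36 were called, where 37.2% of all genes were called too. Without the 3 arrays that stand apart, which were picked from earlier results of these data, 31 were called, where 40.4% of all genes were. Leaving out cKO or control replicate 3 of 4 weeks alone gave 6 or 1, with 3.77% or 0.0267% of all genes.

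Between the times within cKO mice, 4 genes were called, all lower at 8 than at 4 weeks, against 1.09% of all genes called as lower. Asgr1 fell by 0.93 (adjusted p = 0.12), Fn1 by 0.53 (adjusted p = 0.133), Slc13a4 by 0.45 (adjusted p = 0.134) and Mgp by 0.54 (adjusted p = 0.145). This count was 17, 23 or 21 without cKO replicate 3 of 4 weeks, control replicate 3 of 4 weeks or cKO replicate 2 of 8 weeks, with 13.6%, 22.5% or 19.2% of all genes called in either direction. It was 0 when any other cortex array was left out, except control replicate 1 of 4 weeks. Within control mice none was called (limma), and 5 had an unadjusted p under 0.05, all higher at 8 weeks, against 3.12% of all genes.

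**Figure D3:**
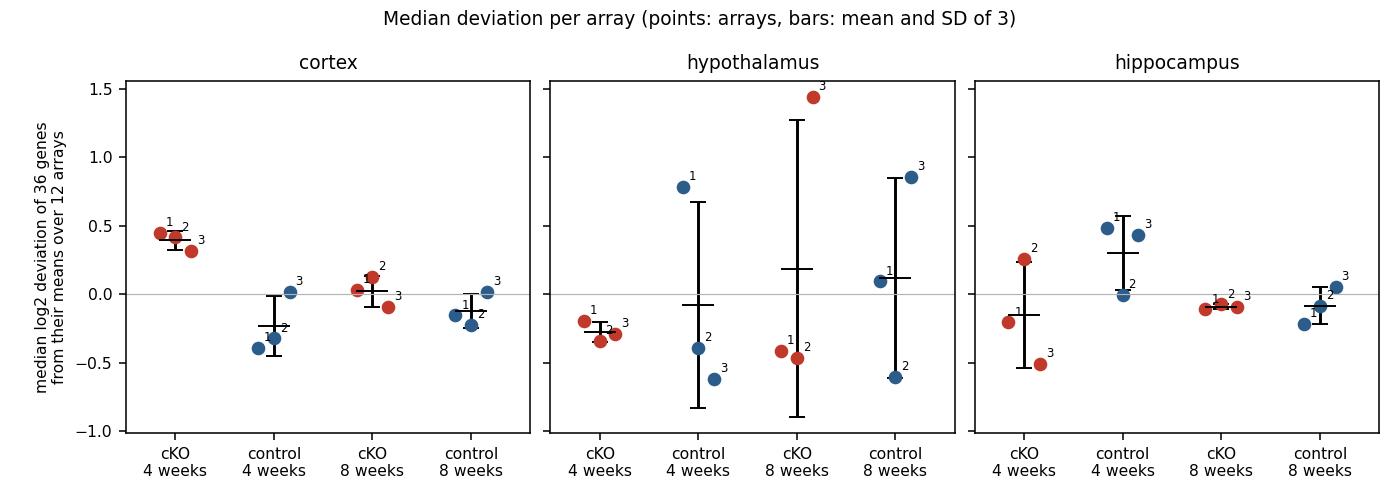
Score of the 36 genes in each array (points), the median log2 deviation of the genes from their means over the 12 arrays of the tissue, cKO in red and control in blue, with the mean and SD of 3 as bars. Cortex cKO scores of 4 weeks lie between 0.31 and 0.45, above the control scores; the hypothalamus has single high points in 3 groups, the highest at 1.44; in the hippocampus the 4-week groups overlap.

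In the hypothalamus none of the 36 genes was called at either time, nor was any other gene (0% of 15000). By limma none had an unadjusted p under 0.05, against 2.73% of all genes at 4 weeks and 7.27% at 8 weeks. The methods' t-test called none with none under 0.05, against 2.75% of all genes at 4 weeks and 5.83% at 8 weeks. The median difference was -0.20 at 4 weeks and 0.04 at 8 weeks, against -0.02 and -0.01 over all genes. Leaving out single arrays moved it between -0.50 and 0.21 at 4 weeks and between -0.57 and 0.43 at 8 weeks, so it had no settled direction. The genes were nonetheless far from constant. Their median range over the 12 arrays was 2.12 on the log2 scale, against 0.35 for all genes tested. A set of 3 arrays from 3 groups held the 3 highest values for 32 of the 36 genes, against 2.43% of all genes: control replicate 1 of 4 weeks, cKO replicate 3 of 8 weeks and control replicate 3 of 8 weeks. The cKO array of 8 weeks was the highest of the 12 for 32 genes, against 5.88% of all genes.

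Ogn, Fmod and Cdh1 had the widest ranges over the 12 arrays. Ogn had 6.53, 6.02 and 6.53 in cKO and 8.66, 5.71 and 5.42 in control hypothalami at 4 weeks. At 8 weeks it had 6.25, 5.85 and 9.68 in cKO and 7.23, 5.59 and 9.06 in control hypothalami. One array in each of 3 groups was thus far above its own group, and the cKO groups overlapped the control groups at both times. Fmod had 7.54, 7.67 and 7.76 in cKO and 9.55, 6.72 and 6.58 in control hypothalami at 4 weeks. At 8 weeks it had 7.42, 6.89 and 10.39 in cKO and 8.14, 6.30 and 10.14 in control hypothalami. Cdh1 was far above its other values in 3 arrays. It had 4.54, 4.52 and 5.28 in cKO and 7.75, 4.83 and 4.56 in control hypothalami at 4 weeks, then 5.14, 4.52 and 8.26 in cKO and 4.78, 4.55 and 7.27 in control hypothalami at 8 weeks.

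The collagens, carriers and retinoic acid genes were high in the same arrays. Col1a2 had 8.71, 8.61 and 8.42 in cKO and 9.39, 8.41 and 8.15 in control hypothalami at 4 weeks, then 8.51, 8.27 and 9.88 in cKO and 8.79, 8.14 and 9.62 in control hypothalami at 8 weeks. Slc13a4 had 7.15, 6.87 and 7.10 in cKO and 8.69, 6.76 and 6.91 in control hypothalami at 4 weeks, then 6.58, 6.68 and 9.24 in cKO and 7.19, 6.19 and 8.76 in control hypothalami at 8 weeks. For both genes the same single arrays stood above the rest. Aldh1a2 had 6.07, 5.88 and 6.23 in cKO and 7.97, 5.73 and 5.33 in control hypothalami at 4 weeks, then 5.78, 5.86 and 8.46 in cKO and 6.70, 5.05 and 8.39 in control hypothalami at 8 weeks. The lowest of its 12 values and a high one both fell in the control group of 8 weeks.

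Serpinf1 did not share this pattern, and Col8a1 followed it less. Serpinf1 stayed between 7.54 and 8.03 in cKO and between 7.77 and 8.16 in control hypothalami at 4 weeks, and its values at 8 weeks were 8.09, 7.86 and 7.85 in cKO and 8.13, 7.28 and 8.15 in control hypothalami. Col8a1 had 6.93, 6.98 and 7.09 in cKO and 7.27, 7.09 and 6.96 in control hypothalami at 4 weeks, then 6.66, 6.82 and 7.50 in cKO and 7.10, 7.07 and 7.09 in control hypothalami at 8 weeks. Without the 3 high arrays, an omission chosen after seeing the data, 1 of the 36 genes was called at 8 weeks. It was Col8a1, which was lower in cKO (-0.34 ± 0.09, SE, adjusted p = 0.12), among 510 called genes of 15000. It was also the one called gene when cKO replicate 3 of 8 weeks alone was left out (-0.34, adjusted p = 0.0970), among 589 called genes. Its 2 highest values lay in 2 of the 3 high arrays. At 4 weeks none was called without the 3 arrays (limma), with 4 higher at an unadjusted p under 0.05, against 1.01% of all genes.

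**Figure D4:**
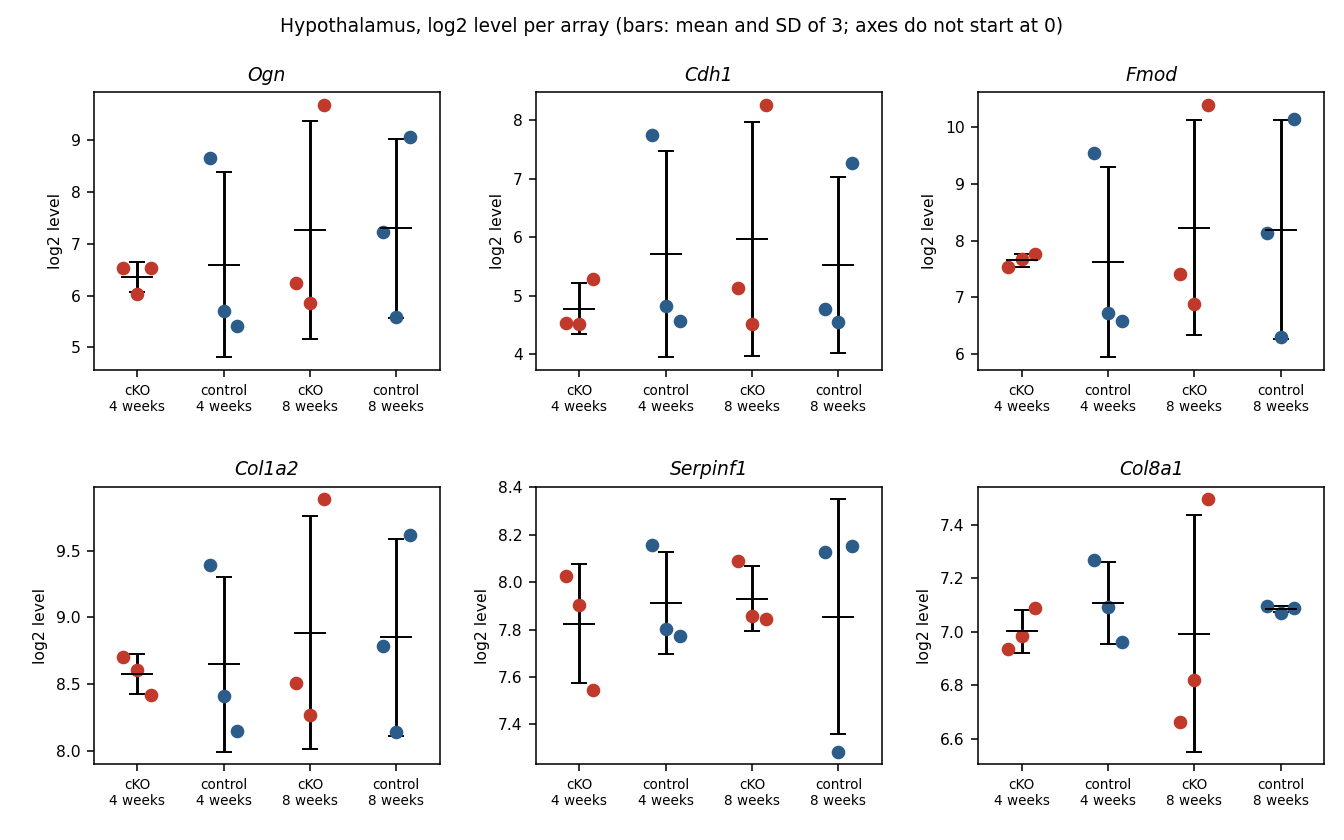
Log2 level in each hypothalamus array (points) with the mean and SD of 3 (bars) for 6 genes, cKO in red and control in blue; axes do not start at 0. In Ogn, Cdh1, Fmod and Col1a2 a single array stands high in the control group of 4 weeks and in both groups of 8 weeks, while Serpinf1 and Col8a1 differ less between arrays.

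The scores of the 36 genes were 0.78, 1.44 and 0.86 in the 3 high arrays and between -0.62 and 0.09 in the other 9. The further meningeal genes were high in the same arrays, at 0.24, 0.38 and 0.30, against -0.24 to -0.01 elsewhere. The choroid plexus score was 0.05, 0.02 and -0.02 in these arrays, against -0.10 to 0.05 elsewhere. The mural and smooth muscle score was 0.09, 0.06 and 0.08, against -0.14 to 0.08, and the endothelial score 0.10, 0.09 and 0.06, against -0.13 to 0.10. All 3 arrays were above 0 in both of these scores, as were 2 and 3 of the other 9. Their part in the high values was not tested. The median level of all genes lay within -0.04 and 0.05 in every hypothalamus array. For 11 mice both the cortex and the hypothalamus were measured. The mice with the high hypothalami of 8 weeks had cortex scores of -0.10 (cKO, replicate 3) and 0.02 (control, replicate 3), so their cortices were not high. The remaining mouse, a control of 4 weeks, had no cortex array.

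In the hippocampus at 4 weeks 35 of the 36 genes had lower levels in cKO than in control hippocampi, with a median of -0.45 against 0.02 over all genes, of which 57.1% were higher. None was called by limma, nor was any gene (0% of 15000). 20 members had an unadjusted p under 0.05 by limma, all lower, against 2.21% of all genes lower. The methods' t-test called none and had none at an unadjusted p under 0.05, against 3.97% of all genes in either direction. The groups were apart for 1 gene only, Col6a2, against 3.17% of all genes apart and lower.

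Slc13a4 had the lowest p there, with 7.43, 7.89 and 7.17 in cKO and 8.53, 7.89 and 8.10 in control hippocampi (-0.67, unadjusted p = 0.00395). cKO replicate 2 stood level with the lowest control array. Fmod had 7.42, 8.58 and 5.81 in cKO and 8.94, 7.58 and 8.31 in control hippocampi (-1.01). Cdh1 showed the widest difference, -1.18, with 3.81, 4.53 and 3.55 in cKO and 5.48, 4.27 and 5.69 in control hippocampi. In both genes cKO replicate 2 was above control replicate 2, so the groups overlapped. Crabp2 had 5.43, 6.74 and 4.92 in cKO and 7.21, 6.01 and 6.99 in control hippocampi (-1.04), and Islr 6.70, 7.46 and 6.14 in cKO and 8.01, 7.23 and 8.06 in control hippocampi, where cKO replicate 2 again overlapped the controls. Col6a2 had 7.13, 7.35 and 7.08 in cKO and 7.44, 7.36 and 7.39 in control hippocampi, apart by a narrow margin (-0.21). Col1a1 alone was higher in cKO (0.15), with overlapping groups.

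The order of the hippocampus arrays was shared by most of these genes. cKO replicate 2, control replicate 1 and control replicate 3 held the 3 highest of the 12 values for 21 of the 36, against 0.507% of all genes. cKO replicate 3 was the lowest of the 12 for 25. The share of all genes for which it was the lowest is not given here, so the 25 cannot be set against the background. The same array was the highest of the 12 for 0 of the 36 genes, against 14.8% of all genes. The scores were -0.21, 0.26 and -0.51 in cKO and 0.48, -0.01 and 0.44 in control hippocampi at 4 weeks. The number of genes lower at an unadjusted p under 0.05 ranged between 4, without cKO replicate 3, and 31, without cKO replicate 2, against 3.09% and 2.54% of all genes, and none was called in either case. The further meningeal score was -0.06, 0.07 and -0.19 in cKO and 0.18, 0.01 and 0.16 in control hippocampi. The further fibroblast matrix score was 0.02, 0.01 and 0.02 in cKO and 0.04, 0.03 and 0.07 in control hippocampi. These groups did not overlap, but the score spanned far less than that of the 36 genes. The mural and smooth muscle score was -0.10, 0.01 and -0.03 in cKO and 0.04, 0.06 and 0.06 in control hippocampi, with no overlap. The difference between 3′ and 5′ actin probe sets was 0.99, 0.81 and 0.96 in cKO and 0.90, 0.77 and 0.77 in control hippocampi. The part of vessel cells and RNA integrity in the lower levels was not tested.

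At 8 weeks the hippocampus had a median difference of 0.03, and none of the 36 genes was called by limma (0% of all genes). Igfbp2 alone had an unadjusted p under 0.05, against 5.97% of all genes, with 8.39, 8.46 and 8.50 in cKO and 8.83, 8.91 and 8.94 in control hippocampi (-0.44, unadjusted p = 0.0462). Its groups were apart. The methods' t-test also called none, with 1 at an unadjusted p under 0.05, against 6.21% of all genes. The interaction called none by limma, with 9 higher and 1 lower at an unadjusted p under 0.05, against 2.31% and 3.47% of all genes. Between 8 and 4 weeks none was called in cKO or in control hippocampi. In control hippocampi 34 of the 36 were lower at 8 weeks, where 53.2% of all genes were higher. Of these, 11 had an unadjusted p under 0.05, against 2.45% of all genes, and the 2 times did not overlap for 9 genes that were lower, against 6.39% of all genes.

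**Figure D5:**
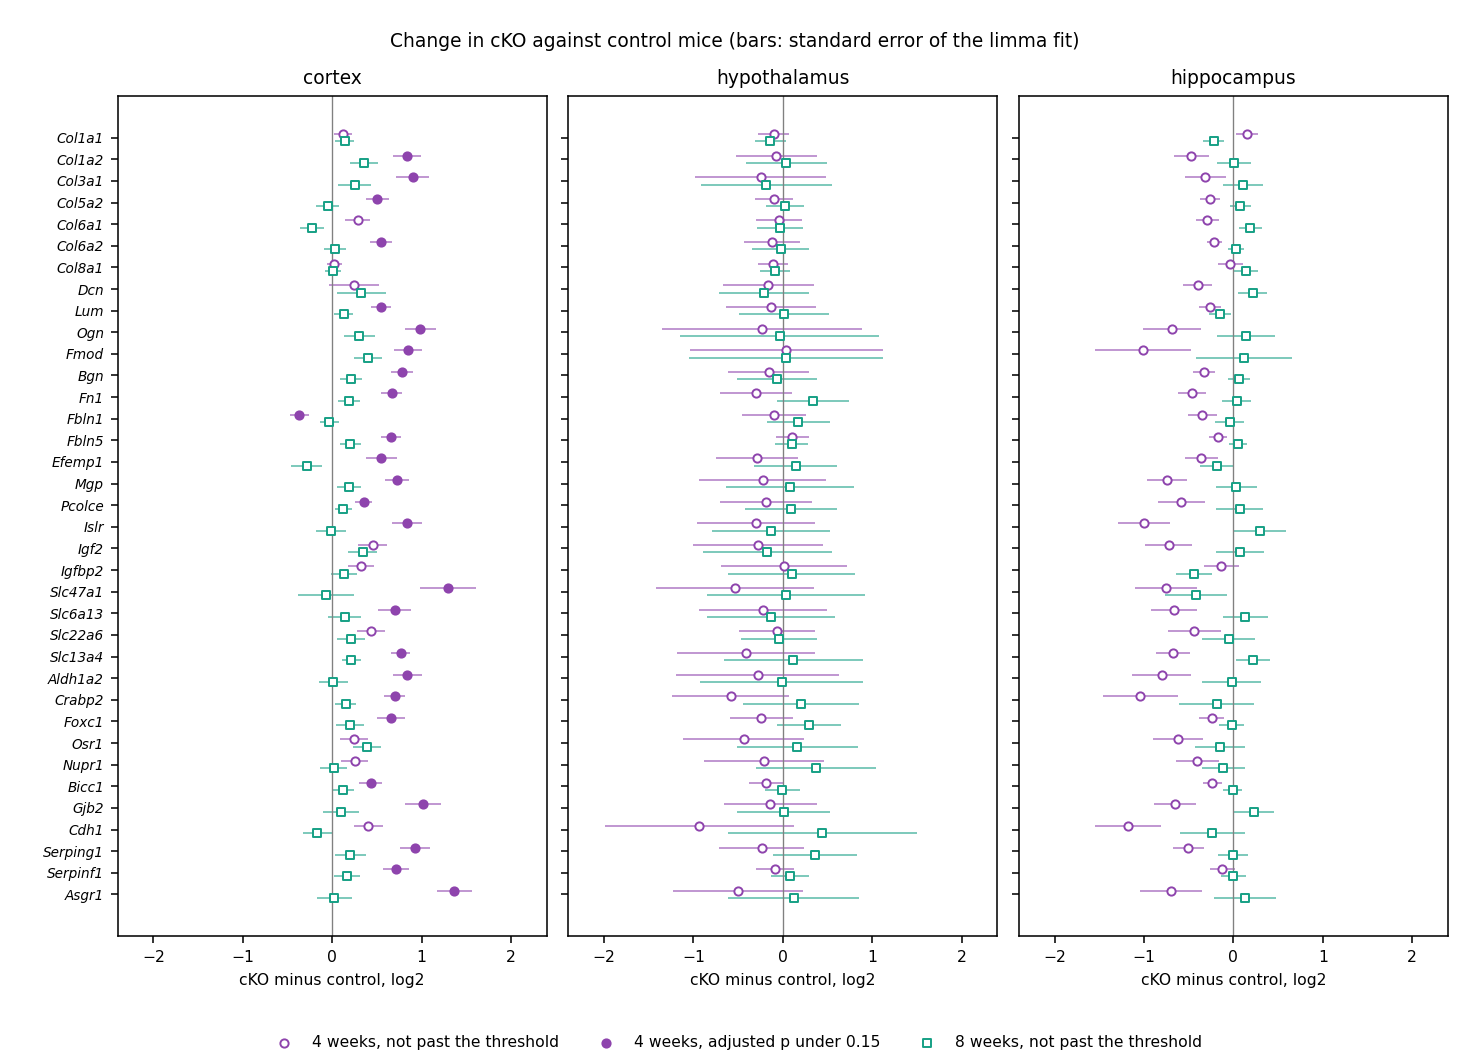
Log2 difference, cKO minus control, of each of the 36 genes in the 3 tissues at 4 and 8 weeks, as circles for 4 and squares for 8 weeks, with bars for the standard error of the fit and filled points where the gene was called by limma at an FDR of 15%. Cortex values of 4 weeks lie mostly above 0 with a median of 0.66, hippocampus values of 4 weeks mostly below 0 with a median of -0.45, and values of 8 weeks near 0.

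The changes of 4 weeks were then compared between regions as a difference of differences, each taken within a tissue that had been normalized by itself. The change in the cortex minus that in the hippocampus, which came from different mice, was called for 24 of the 36 genes, all higher, against 1.36% of the 14519 genes tested in both. Its median was 1.02, against 0.10 over all genes. Slc13a4 (1.44) and Bgn (1.11) had the lowest adjusted p, 0.0124 each, and Asgr1 (2.06) and Slc47a1 (2.05) the largest differences. At least 1 gene of every group of roles was called: Col1a2 among the fibrillar collagens (1.30), Col6a2 among the others (0.76), Fn1 among the glycoproteins (1.13), Igf2 (1.18), Aldh1a2 (1.64), Foxc1 (0.90), Gjb2 (1.66) and Serping1 (1.43). Col1a1 and Col8a1 had differences of -0.03 and 0.06. Fbln1 and Ogn were read from a different probe set in each of these tissues. The difference of Fbln1 is therefore not given, and the call of Ogn, which is among the 24, compares different probe sets. Both genes are in the median of 1.02. The count was 14, 12, 12 or 13 without cKO replicate 1, cKO replicate 2, control replicate 1 or control replicate 2 of the 4-week cortex. It was 15, 12 or 14 without cKO replicate 1, control replicate 1 or control replicate 3 of the 4-week hippocampus. The shares of all genes called in these runs are not given here, so these counts cannot be set against the background.

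The change in the cortex minus that in the hypothalamus was called for 3 genes, Serpinf1 (0.81, adjusted p = 0.0876), Bicc1 (0.61, adjusted p = 0.123) and Fbln5 (0.56, adjusted p = 0.137), against 15.5% of the 14532 genes tested in both. The share of members called was thus below that of all genes. Col1a1, Col8a1 and Fbln1 were read from different probe sets in these 2 tissues. None of them was called, but all are in the median given below. The count was 0 without cKO replicate 1 or 2 or control replicate 1 or 2 of the 4-week cortex, or without cKO replicate 3 or control replicate 1 of the 4-week hypothalamus. It was 12 without control replicate 3 of the 4-week cortex or cKO replicate 3 of the 8-week hypothalamus, and between 1 and 8 without any other single array. For these runs the shares of all genes called are not given here. Their counts, the higher ones included, therefore cannot be set against the background. The median was 0.79, against 0.14 over all genes, with standard errors that carried the spread of the hypothalamus: Slc13a4 had 1.12 ± 0.78 (SE, adjusted p = 0.364) and Aldh1a2 1.05 ± 0.93 (SE, adjusted p = 0.482).

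The genes varied together within groups. For each gene, the deviations of the 12 arrays of a tissue from their group means were correlated with the mean deviation of the other 35 genes. These correlations are descriptions over 12 arrays, which share their RNA and their normalization between genes. In the hypothalamus the median r was 0.98, and 30 genes exceeded 0.9, against 0.882% of the other genes tested. Ogn, Slc6a13 and Asgr1 followed the others most closely (r = 1.00, 0.99 and 0.99), and Serpinf1, Col8a1 and Col6a1 least (r = 0.47, 0.77 and 0.84). In the hippocampus the median r was 0.88 and 15 genes exceeded 0.9, against 0.0802% of other genes. Col1a2, Slc6a13 and Aldh1a2 led (r = 0.99, 0.96 and 0.96), and Serpinf1, Igfbp2 and Fbln5 came last (r = -0.46, 0.22 and 0.34).

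In the cortex the median r was 0.80, and 18 genes exceeded 0.8, against 5.25% of other genes. Serpinf1, Col1a2 and Slc22a6 came first (r = 0.99, 0.93 and 0.92), and Fbln1, Col8a1 and Pcolce last (r = -0.73, -0.60 and -0.30). The median of other genes there was 0.33, and centring each array lowered that of the 36 genes to 0.66. Serpinf1 was thus the closest follower in the cortex and the least close in the other 2 tissues.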

How the data were processed

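RNA was hybridized to Affymetrix mouse arrays, 36 in all with 45101 probe sets. The deposited values are log2 intensities that the authors made with RMA, run for each tissue (version not given in the sources used here), and were used as they are. Probe sets were named through the platform annotation, of which 34958 have 1 gene. The probe set with the highest mean in a tissue stood for its gene, and the 15000 genes with the highest third-highest value were tested, in place of present calls, which were not used here.

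The 4 groups of a tissue were fitted together (limma 3.58.1, R 4.3.3), with two-sided p-values adjusted by Benjamini-Hochberg and the FDR of 15% of the methods. Cortex and hypothalamus were set against each other with duplicateCorrelation over shared mice (statmod 1.5.0). Groups came from the titles, and every array of a group from a separate mouse. The pipeline was tested on simulated data. The number of arrays limits the precision, and intensities give no depth.

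The 36 genes and all lists were chosen with earlier results of these data known. Named genes are the 36 genes, up to 3 of each list of cell markers with the lowest p, Dicer1 and Camk2a, and the 3 genes of each tissue that followed the others most and least. Alternatives covered the filter, probe set, scaling, variance model, threshold, the methods' t-test, blocks and the omission of arrays. Replicate numbers were read as pairs if deviations from the group means correlated above 0.1 in every pair, and only the 8-week hypothalamus met this (0.198, 0.259 and 0.296). Camk2a itself was not called in any tissue.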

Additional observations from a re-analysis of the deposited data

Results flagged for a closer look

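The change at 4 weeks differed between the cortex and another region for some genes, by the test of the difference of differences (limma, each change taken within its own tissue). Against the hypothalamus the change was larger in the cortex for 3 genes: Serpinf1 by 0.81, Bicc1 by 0.61 and Fbln5 by 0.56 on the log2 scale. Of all genes tested in both regions 15.5% were called, so these 3 of 36 are below the share of all genes. Against the hippocampus it was larger in the cortex for 24 genes, against 1.36% of all genes called.

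Of the collagens, these were Col1a2 (1.30), Col3a1 (1.22), Col5a2 (0.76) and Col6a2 (0.76). Of the proteoglycans, they were Lum (0.81), Ogn (1.67) and Bgn (1.11), where Ogn was read from different probe sets in the 2 tissues. The glycoproteins were Fn1 (1.13), Fbln5 (0.83), Mgp (1.46) and Islr (1.84), and Igf2 differed by 1.18. The carriers were Slc47a1 (2.05), Slc6a13 (1.36) and Slc13a4 (1.44), and the retinoic acid genes Aldh1a2 (1.64) and Crabp2 (1.74). Foxc1 (0.90), Bicc1 (0.67), Gjb2 (1.66), Cdh1 (1.58), Serping1 (1.43), Serpinf1 (0.84) and Asgr1 (2.06) completed the 24.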

How the results depend on the processing

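The cortex count of 26 genes at 4 weeks became 17 with arrays centred, 17 with quantile normalization and 4 with the 6 arrays only. It was 0 with the methods' t-test, 11 at an FDR of 5%, and 1 to 33 with single arrays left out. Of all genes, 8.39% were called in the main run and 0.00667% with the methods' t-test. With single arrays left out the share ran between 0.04% and 42.5%. Its median of 0.66 was 0.52 with quantile normalization and 0.55 to 0.79 with single arrays left out. The fall of Fbln1 turned to 0.52 with its most variable probe set. The interaction in the cortex, with 0 genes, gave 30 with array weights, 31 without the 3 arrays that stand apart and 0 to 6 with single arrays left out. The 30, 31 and 6 came with 37.2%, 40.4% and 3.77% of all genes called. The 4 genes lower at 8 weeks in cKO cortices became 0 with the most variable probe set, every probe set, centring, quantile normalization and 6 arrays. The count was also 0 with the animal-number block and at FDRs of 5% and 10%. It was 7 with a variance trend and 0 to 23 with single arrays left out, the 23 with 22.5% of all genes called. Array weights gave 28 and the omission of the 3 arrays 25, where 42.4% and 48% of all genes were called too. In control cortices array weights gave 2 in place of 0. In the hypothalamus at 8 weeks 1 was called without the 3 high arrays, and 0 to 1 with single arrays left out. Of all genes, 3.4% were called without the 3 high arrays and 3.93% without cKO replicate 3 of 8 weeks.

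Cortex minus hypothalamus, with 3 genes, gave 0 at an FDR of 5%, with centring, with quantile normalization and with shared animals ignored, 1 at an FDR of 10%, without a filter and without the 3 high hypothalamus arrays, 5 with 10000 genes, 10 with array weights, 11 without the 3 cortex arrays and 0 to 12 with single arrays left out. Cortex minus hippocampus, with 24, gave 12 at an FDR of 5%, with centring and with quantile normalization, 14 with 10000 genes, and 12 to 32 with single arrays left out. With the replicate block, 22 genes were called in the cortex at 4 weeks and 0 were lower at 8 weeks in cKO cortices; it called 0 in the hypothalamus at 8 weeks, the only comparison where the pairing rule was met. No other count of calls in the hypothalamus or hippocampus left 0 under any alternative run. The cause of these changes was not tested. Counts given without a share of all genes, here or above, cannot be set against the background.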
